A study of Homo sapiens with 8 samples.

Results

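A group of 9 receptor genes for haematopoietic growth factors and cytokines was followed through KDM3B knockdown and all-trans retinoic acid (ATRA) treatment: CSF3R, CSF2RB, CSF1R, KIT, FLT3, IL6R, IL18RAP, IL17RA and IL10RA. They were picked by gene symbol, as 9 of the 37526 gene names that all 8 RNA-seq libraries listed. Every library was made from NB4, a human acute promyelocytic leukemia (APL) line that carries the PML/RARα fusion protein and matures towards granulocytes under ATRA. The purpose was to learn how KDM3B, a histone H3 lysine 9 demethylase, bears on this differentiation.

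The 4 groups held 2 libraries each. The shNC group was NB4 stably transduced with the control vector, which the sample labels call an empty vector and the methods a scrambled hairpin. The shKDM3B group was NB4 stably transduced with a hairpin against KDM3B, without a statement of which hairpin. The shNC_ATRA and shKDM3B_ATRA groups were the same transduced cells given 1 µM ATRA for 24 or 48 hours, and the labels did not say which library had which time. This dose is that of the labels, and the methods give it in millimolar. All 8 libraries therefore came from lentivirally transduced cells of a single tumor line, and nothing stated whether replicates were separate cultures, so the spread between them may be technical.

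Cytokine receptors span the cell membrane, and binding of the ligand brings receptor chains together. CSF1R, KIT and FLT3 are receptor tyrosine kinases that phosphorylate themselves, whereas CSF3R, CSF2RB, IL6R and IL10RA work through Janus kinases and STAT transcription factors. IL18RAP signals through MyD88 and IRAK kinases, and IL17RA through its own adaptor. KIT and FLT3 are known from stem and progenitor cells, CSF3R from the neutrophil lineage and CSF1R from monocytes and macrophages.

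The promoter sequences of 3 members are shown because, among the 8 members tested, these genes gave the widest knockdown effect in untreated cells (IL18RAP) and the ATRA responses that differed most between shNC and shKDM3B cells (IL6R and FLT3). Each run is the part of the 250 bases before a RefSeq transcription start (GRCh38.p14) that lies outside every annotated exon of its gene, written on the strand of the gene. Capitals mark GAGGAA or its complement TTCCTC, the core bound by the myeloid factor PU.1, and AGGTCA, the hexamer that retinoid receptors bind. IL18RAP is shown at chr2:102418371-102418620 on the plus strand, IL6R at chr1:154405093-154405192 on the plus strand and FLT3 at chr13:28100593-28100826 on the minus strand.
IL18RAP: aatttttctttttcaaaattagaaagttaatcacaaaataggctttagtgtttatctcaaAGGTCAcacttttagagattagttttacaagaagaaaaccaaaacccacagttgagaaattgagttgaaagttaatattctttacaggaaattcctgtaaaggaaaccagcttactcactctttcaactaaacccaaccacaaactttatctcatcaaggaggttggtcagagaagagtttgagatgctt
IL6R: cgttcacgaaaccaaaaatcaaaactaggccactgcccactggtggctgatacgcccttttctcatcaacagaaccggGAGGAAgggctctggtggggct
FLT3: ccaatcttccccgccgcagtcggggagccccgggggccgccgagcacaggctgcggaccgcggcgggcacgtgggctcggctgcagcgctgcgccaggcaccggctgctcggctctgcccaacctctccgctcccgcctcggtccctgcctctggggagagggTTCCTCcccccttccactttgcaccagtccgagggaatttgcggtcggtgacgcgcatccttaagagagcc
The table of starts held 11 windows of 300 bases, from 250 before to 50 after a start, for 7 of the 9 members; CSF2RB and IL17RA were not matched. On either strand, GAGGAA occurred in 7 of these 11 windows, of 6 members and with 1 site of IL18RAP counted in 2 overlapping windows, and in 27.9% of all 35116 windows. AGGTCA occurred in 2 of the 11, both of them overlapping windows of IL18RAP, and in 13.8% of all. The C/EBP-type motif TTNNGNAA occurred in 8 of the 11, of 5 members and again with a site in both overlapping windows of IL18RAP, and in 36.8% of all, and shared bases with the PU.1 core only in the window of IL6R. These matches are letters in a window, and binding was not measured here.

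Each library held 9708739 to 33017787 reads assigned to genes. Reads that fell in no gene made up 8.49 to 9.62% of the reads in the 4 untreated libraries and in shNC_ATRA replicate 1, but 50.0 to 51.4% in shNC_ATRA replicate 2 and both shKDM3B_ATRA libraries. Levels are therefore given as CPM, the reads of a gene per 1000000 reads assigned to genes, scaled between libraries by the trimmed mean of M-values (TMM). KDM3B itself was at 187 and 188 CPM in shNC, 76.3 and 86.2 in shKDM3B, 196 and 121 in shNC_ATRA and 52.5 and 57.4 in shKDM3B_ATRA. The shKDM3B libraries were below the shNC libraries with and without ATRA, the direction that the labels give. The promyelocyte marker MPO was at 4284 and 5343 CPM in shNC, and the summed level of 11 granulocyte markers went from 483 to 489 CPM in shNC to 2322 to 2439 in shNC_ATRA, 292 to 303 in shKDM3B and 1129 to 1363 in shKDM3B_ATRA. Most of that sum was CYBB, at a mean of 327 CPM in shNC and 1917 in shNC_ATRA, while MMP9 went from 51.4 to 1.80 CPM and CEACAM8, LTF and FCGR3B were at or near 0. Of 6 monocyte markers the sum was 78.4 to 80.1 CPM in shNC, 46.6 to 68.1 in shKDM3B, 93.5 to 127 in shNC_ATRA and 28.8 to 43.5 in shKDM3B_ATRA. The 5 promyelocyte markers, most of it MPO, summed to 4389 to 5460 CPM in shNC, 8490 to 9645 in shKDM3B, 619 to 734 in shNC_ATRA and 2223 to 3132 in shKDM3B_ATRA. ELANE, AZU1 and PRTN3 of that list were near 0, with means of 0.0461, 0.235 and 0.529 CPM in shNC. None of these had a mean above 0.888 CPM in any group. The 5 mast cell and basophil markers, nearly all of it HDC in the untreated libraries, summed to 199 to 324, 97.6 to 181, 11.9 to 12.8 and 1.26 to 5.53 CPM in the same order, and the 6 lymphoid markers to 39.9 to 52.0, 23.6 to 29.0, 55.1 to 74.3 and 28.5 to 39.5. The 7 erythroid and megakaryocyte markers summed to 1.69 to 7.78 CPM and the 6 epithelial and fibroblast markers to 17.9 to 25.1 over all libraries. All of the erythroid and megakaryocyte markers other than ITGA2B, MS4A1 of the lymphoid, FCER1A of the mast cell and KRT19 of the epithelial markers had no count in any library. In bulk RNA, fewer cells with a receptor and less of its RNA per cell cannot be told apart.

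Levels can be set against each other between genes only per length, so CPM was divided by kilobases of annotated exon. In shNC the order was IL17RA (16.9 CPM per kb), IL6R (11.1), CSF3R (6.25), IL18RAP (4.33), CSF2RB (3.78), FLT3 (3.76), CSF1R (0.936), IL10RA (0.0731) and KIT (0.0444). The libraries of IL18RAP, CSF2RB and FLT3 did not keep that order, since the range of FLT3 (3.03 to 4.49 CPM per kb) overlapped those of IL18RAP (4.13 to 4.53) and CSF2RB. In shNC_ATRA, IL6R and CSF3R stood together at the top with 24.4 CPM per kb each, and their libraries overlapped. IL18RAP followed at 16.4 CPM per kb, ahead of CSF2RB at 7.35, IL17RA at 4.85, CSF1R at 1.35 and FLT3 at 0.543. In shKDM3B, IL17RA led at 21.9 CPM per kb and IL18RAP, at 0.898, stood below FLT3, at 1.55, in both libraries. In shKDM3B_ATRA, CSF3R led at 13.1 CPM per kb, ahead of IL6R at 10.6, and CSF2RB, IL18RAP and IL17RA came next at 5.58, 4.47 and 3.86 with overlapping neighbours. The exon length of CSF3R, 10594 bases, joins the exons of all annotated transcripts, so its level per kb is a low estimate if a shorter transcript prevails.

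CSF3R, the receptor for granulocyte colony-stimulating factor, lies at chr1:36466043-36483278 (hg38, minus strand). It was at 66.9 and 65.4 CPM in shNC and at 275 and 242 CPM in shNC_ATRA. In shKDM3B it was at 54.8 and 48.4 CPM, and in shKDM3B_ATRA at 138.5 and 139.2 CPM. Every shKDM3B library was below every shNC library under the same treatment, and every ATRA library was above every untreated library. On the log2 scale the rise with ATRA was 2.0 ± 0.21 (SE) in shNC (edgeR adjusted p = 0.00137) and 1.48 ± 0.13 in shKDM3B (edgeR adjusted p = 1.6e-05). The knockdown effect was -0.36 ± 0.16 untreated, under 1.5-fold, and -0.89 ± 0.13 with ATRA (edgeR adjusted p = 0.502).

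CSF2RB, the signalling chain shared by the receptors for GM-CSF, interleukin-3 and interleukin-5, lies at chr22:36913628-36940439 (plus strand). It was at 18.1 and 19.6 CPM in shNC and at 9.71 and 12.8 CPM in shKDM3B. With ATRA it was at 41.0 and 32.4 CPM in shNC and at 27.4 and 28.3 CPM in shKDM3B. The groups were separate in all 4 comparisons, with both shKDM3B libraries below both shNC libraries in each state. The log2 knockdown effect was -0.74 ± 0.22 untreated (edgeR adjusted p = 0.275) and -0.39 ± 0.20 with ATRA, which was not called. ATRA raised CSF2RB by 0.99 ± 0.23 in shNC and by 1.35 ± 0.19 in shKDM3B (edgeR adjusted p = 0.0315 and 0.00038).

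CSF1R, the macrophage colony-stimulating factor receptor, lies at chr5:150053291-150113372 (minus strand). It was at 4.57 and 5.08 CPM in shNC, 2.16 and 3.41 in shKDM3B, 9.25 and 4.70 in shNC_ATRA and 3.90 and 3.32 in shKDM3B_ATRA. The shNC_ATRA libraries differed from each other more than any other pair, and only replicate 1 stood above the untreated shNC libraries. The log2 knockdown effect was -0.78 ± 0.33 untreated (edgeR adjusted p = 0.467) and -0.95 ± 0.47 with ATRA (95% interval -2.30 to 0.40), which was not called. The untreated call was lost without shNC replicate 2 (-0.69) or shKDM3B replicate 1 (-0.50). With ATRA the knockdown effect was -1.36, past the thresholds, without shNC_ATRA replicate 2 and -0.37 without shNC_ATRA replicate 1. The ATRA response was 0.57 ± 0.42 in shNC and was not called. It was -0.0022 without shNC_ATRA replicate 1 and 0.95 without shNC_ATRA replicate 2.

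The progenitor receptors KIT and FLT3 were both lower in shNC_ATRA and in shKDM3B than in shNC, at very different levels. KIT, the receptor for stem cell factor at chr4:54657267-54740783 (plus strand), had 15 and 6 reads in shNC, 1 and 3 in shKDM3B, 2 and 2 in shNC_ATRA and 0 and 0 in shKDM3B_ATRA. These counts did not pass the low-count filter, so KIT was not tested. The pooled KIT count relative to the pooled library size was 6.25 times lower in shKDM3B than in shNC (95% counting interval 2.11 to 25.0) and 3.26 times lower in shNC_ATRA than in shNC (1.10 to 13.1). The interval covers counting error only. A count of 0 in shKDM3B_ATRA allows up to 0.154 CPM over that group, so a difference from the 4 reads of shKDM3B or of shNC_ATRA was not detectable at this depth.

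FLT3, the receptor for FLT3 ligand, lies at chr13:28003274-28100592 (minus strand), downstream of the promoter shown above. It was at 18.7 and 12.6 CPM in shNC, 7.35 and 5.58 in shKDM3B, 1.65 and 2.86 in shNC_ATRA and 2.95 and 2.91 in shKDM3B_ATRA. The untreated shKDM3B libraries lay between the untreated shNC libraries and the ATRA libraries, and all 4 ATRA libraries were at 2.95 CPM or below. ATRA lowered FLT3 by a log2 change of -2.77 ± 0.43 in shNC (edgeR adjusted p = 0.0066) and of -1.08 ± 0.30 in shKDM3B (edgeR adjusted p = 0.0142). The knockdown effect was -1.28 ± 0.28 untreated (edgeR adjusted p = 0.148) and 0.39 ± 0.44 with ATRA (95% interval -0.89 to 1.66). With ATRA it was 0.05 without shNC_ATRA replicate 1 and 0.82 without shNC_ATRA replicate 2.

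IL6R, the interleukin-6 receptor alpha chain at chr1:154405193-154469450 (plus strand), was the member whose ATRA response differed between hairpins at the smallest P. It was at 74.4 and 80.7 CPM in shNC and at 76.9 and 70.3 CPM in shKDM3B. With ATRA it was at 205 and 136 CPM in shNC and at 75.3 and 72.8 CPM in shKDM3B. Only the shNC_ATRA libraries were high, and the other 6 libraries lay between 70.3 and 80.7 CPM. The log2 response to ATRA was 1.17 ± 0.25 in shNC (edgeR adjusted p = 0.0232) and 0.06 ± 0.13 in shKDM3B (95% interval -0.23 to 0.35). The knockdown effect was -0.08 ± 0.15 untreated (95% interval -0.42 to 0.27) and -1.20 ± 0.25 with ATRA (edgeR adjusted p = 0.502), a call that was lost without either shKDM3B_ATRA library.

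IL18RAP, the accessory chain of the interleukin-18 receptor at chr2:102418689-102452565 (plus strand), had the widest knockdown effect of the 8 members tested in each state, though with ATRA it was -1.27 beside -2.26 for IL10RA on the log2 scale without shKDM3B_ATRA replicate 1. It was at 12.3 and 13.4 CPM in shNC and at 2.11 and 3.22 CPM in shKDM3B. With ATRA it was at 46.6 and 50.7 CPM in shNC and at 6.42 and 20.1 CPM in shKDM3B. The shNC pairs were tight, the shKDM3B_ATRA pair was wide, and no groups of the 4 comparisons overlapped. The knockdown effect on the log2 scale was -2.25 ± 0.29 untreated (edgeR adjusted p = 0.0745), the 8th smallest P of 13855 genes, and -1.87 ± 0.63 with ATRA (edgeR adjusted p = 0.508). The latter was -2.91 without shKDM3B_ATRA replicate 2 and -1.27 without replicate 1. ATRA raised IL18RAP by 1.96 ± 0.22 in shNC and by 2.35 ± 0.48 in shKDM3B (edgeR adjusted p = 0.00193 and 0.0030), and in shKDM3B by 1.31 without shKDM3B_ATRA replicate 2 and 2.92 without replicate 1. IL18R1, the ligand-binding chain of the same receptor, had 124 and 213 reads in shNC and 53 and 112 in shKDM3B, a log2 change of -1.29 ± 0.30 (edgeR adjusted p = 0.172).

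IL17RA, the common chain of the interleukin-17 receptors at chr22:17084954-17115693 (plus strand), fell with ATRA. It was at 124 and 191 CPM in shNC, 167 and 240 in shKDM3B, 52.6 and 37.5 in shNC_ATRA and 29.5 and 42.3 in shKDM3B_ATRA. Both ATRA groups lay below both untreated groups, and the hairpins overlapped in each state. Untreated, shKDM3B stood above shNC under both replicate numbers. With ATRA it stood below shNC under replicate 1 and above it under replicate 2. The log2 change with ATRA was -1.77 ± 0.29 in shNC (edgeR adjusted p = 0.00823) and -2.45 ± 0.22 in shKDM3B (edgeR adjusted p = 1.8e-05). The knockdown effect was 0.37 ± 0.24 untreated (95% interval -0.19 to 0.93) and -0.33 ± 0.30 with ATRA (-1.18 to 0.53). Untreated, it was 0.72 without shNC replicate 2 and 0.61 without shKDM3B replicate 1, past the thresholds in both cases.

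IL10RA, the ligand-binding chain of the interleukin-10 receptor at chr11:117986370-118003037 (plus strand), was scarce. It had 14 and 14 reads in shNC, 4 and 8 in shKDM3B, 23 and 17 in shNC_ATRA and 6 and 3 in shKDM3B_ATRA. As CPM this was 0.703 and 0.587, 0.206 and 0.245, 1.41 and 1.57, and 0.632 and 0.301 in the same order. The hairpins were separate in both states. The log2 knockdown effect was -1.47 ± 0.58 untreated (edgeR adjusted p = 0.427) and -1.65 ± 0.63 with ATRA (95% interval -3.47 to 0.17), which was not called. With ATRA the effect ran from -2.26 to -1.21 with a library left out. In each state IL10RA passed the low-count filter through the control libraries alone, so only a fall could readily be called. ATRA gave 1.23 ± 0.51 in shNC (edgeR adjusted p = 0.172), and the calls of both comparisons with untreated shNC were lost with any of their 4 libraries left out.

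**Figure D1:**
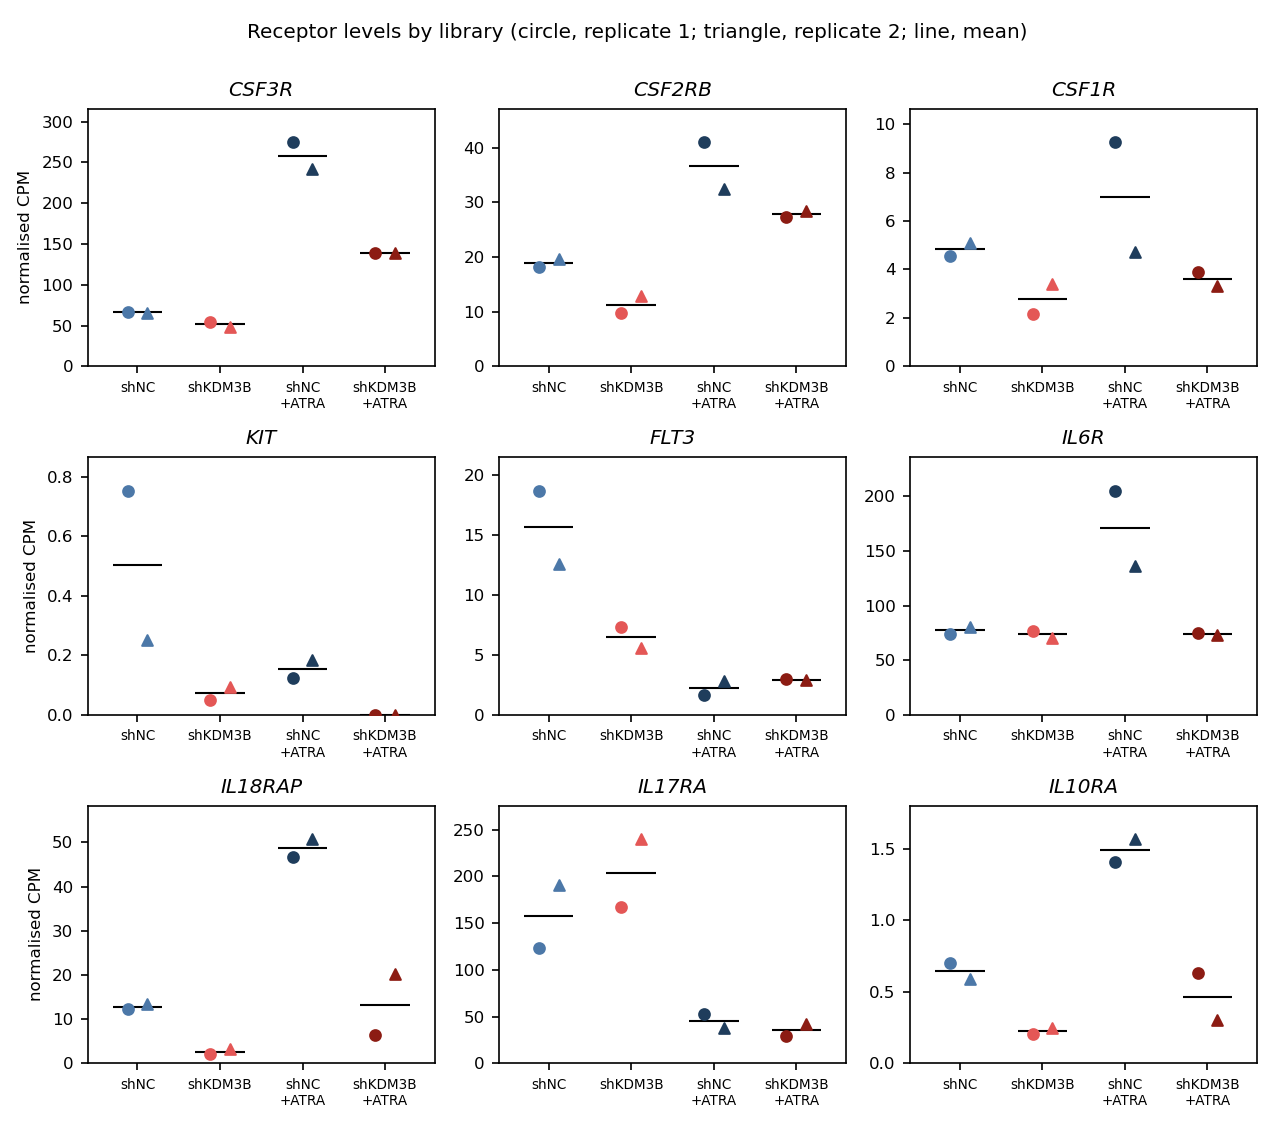
Normalised CPM of the 9 receptors in each library, each panel with its own linear axis from 0; circles are replicate 1, triangles replicate 2 and lines the mean of 2 libraries. IL6R stood out in the shNC_ATRA libraries alone, IL18RAP was low in both shKDM3B libraries, and FLT3 and IL17RA were high only without ATRA.

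A gene was called where the edgeR quasi-likelihood P was under 0.05 before adjustment and the change was at least 1.5-fold, the thresholds of the study. In untreated cells, knockdown lowered 5 of 8 tested members, CSF2RB, CSF1R, FLT3, IL18RAP and IL10RA, and raised none. IL10RA passed the low-count filter through shNC alone, so only a fall could readily be called. The count and the median of the members below include it. Among markers in the same comparison, the granulocyte genes MMP9, ITGAM and CYBB fell, 2 of 5 monocyte genes fell and MPO alone of 4 promyelocyte genes rose, by 0.89 ± 0.15 on the log2 scale (edgeR adjusted p = 0.105), and their part in the result was not tested. In that comparison 7.01% of 13855 genes were called, 3.53% as lower and 3.48% as higher. The groups did not overlap for 6 of the 8 tested members, against 40.9% of genes. The median log2 change of the tested members was -0.76, beside 0.00022 over all genes. DESeq2 called 3 members at the same unadjusted thresholds. None of the 5 edgeR calls passed at an adjusted p under 0.05 in edgeR, where 3 genes in all did (0.0217%) and 1411 had an unadjusted P under 0.05. With adjusted p, DESeq2 kept FLT3 and IL18RAP (DESeq2 adjusted p = 0.0046 and 5.8e-08) and gave no adjusted p for IL10RA. Without shKDM3B replicate 1 the count was 3, with IL17RA as higher and without CSF2RB, CSF1R and IL10RA as lower.

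With ATRA, knockdown lowered 3 of 8 tested members, CSF3R, IL6R and IL18RAP, beside 6.79% of 14281 genes called, 4.37% as lower and 2.42% as higher. The groups did not overlap for 7 of the 8 tested members, against 50.1% of genes. FLT3 was on the higher side, though at 2.95 and 2.91 CPM against 2.86 in shNC_ATRA replicate 2. The median log2 change of the tested members was -0.92, beside 0.034 over all genes. In edgeR 0 genes passed at an adjusted p under 0.05 and 1383 had an unadjusted P under 0.05, while DESeq2 called CSF3R and IL6R at adjusted p = 1.3e-06 and 0.0043. Among the 3 libraries with 50.0 to 51.4% of reads outside genes, that is without shNC_ATRA replicate 1, the log2 changes were -0.79 for CSF3R, -0.87 for IL6R and -1.92 for IL18RAP, and with that library but not shNC_ATRA replicate 2 they were -0.98, -1.47 and -1.81. The count was 4 and 5 in these fits, but 1 without shKDM3B_ATRA replicate 1 (IL18RAP) and 2 without shKDM3B_ATRA replicate 2 (IL18RAP and CSF3R). Each of these fits left 1 group with a lone library, whose spread was taken to be that of the other group. The summed granulocyte and monocyte markers given above were also lower with knockdown in ATRA-treated cells. In the same comparison MPO rose by 1.99 ± 0.24 on the log2 scale, CTSG, the other promyelocyte marker tested, was at -0.79 ± 0.47 and was not called, and the lymphoid markers CD79A and NKG7 fell by 1.09 and 1.12 (edgeR adjusted p = 0.502 for each). The part of these markers in the results was not tested.

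**Figure D2:**
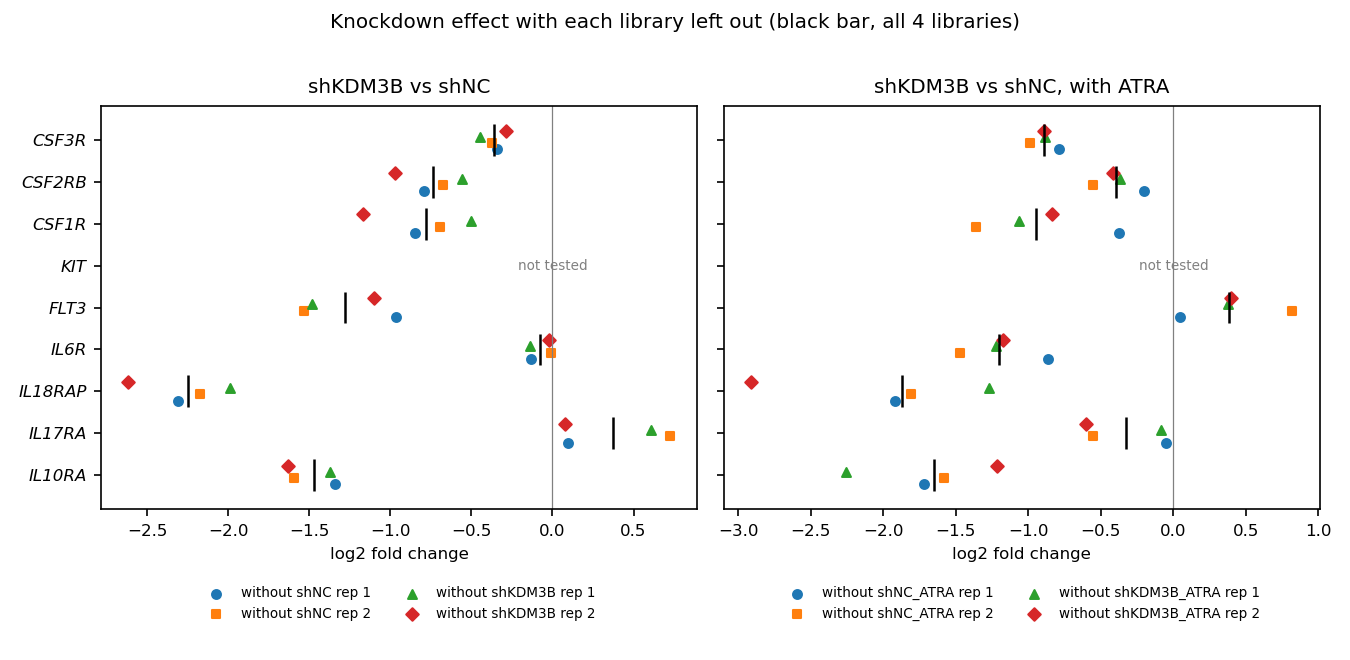
Log2 fold change of each receptor with knockdown, untreated (left) and with ATRA (right), when 1 of the 4 libraries was left out (colored symbols) and with all 4 libraries (black bars); KIT was not tested. The values for IL18RAP with ATRA ran from -2.91 to -1.27, and those for IL17RA untreated from 0.08 to 0.72.

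In shNC cells, ATRA raised CSF3R, CSF2RB, IL6R, IL18RAP and IL10RA and lowered FLT3 and IL17RA, 7 of 8 tested members. In that comparison 25.9% of 12429 genes were called, 15% as higher and 10.8% as lower. At an adjusted p under 0.05 there were 6 members, all but IL10RA, against 12.9% of genes. The groups did not overlap for 7 of the 8, against 57.4% of genes. With shNC_ATRA replicate 1 alone, whose share of reads outside genes matched the untreated libraries, the log2 changes were 2.06 for CSF3R, 1.13 for CSF2RB, 1.41 for IL6R, 1.87 for IL18RAP, -3.23 for FLT3 and -1.57 for IL17RA. Without shNC replicate 1 the count of members was 4, with CSF2RB, IL6R and IL10RA not called.

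In shKDM3B cells, ATRA raised CSF3R, CSF2RB and IL18RAP and lowered FLT3 and IL17RA, 5 of 7 tested members, all at an adjusted p under 0.05. In that comparison 42.2% of 12756 genes were called, 24% as higher and 18.3% as lower, and 40.2% at an adjusted p under 0.05, while the groups did not overlap for 5 of the 7 tested members, against 76.7% of genes. The shKDM3B libraries differed from the shKDM3B_ATRA libraries in ATRA and in the share of reads outside genes at once, and these cannot be told apart. The ATRA response of shKDM3B cells and the knockdown effect with ATRA used the same shKDM3B_ATRA libraries, as the ATRA response of shNC cells and the untreated knockdown effect used the same shNC libraries.

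**Figure D3:**
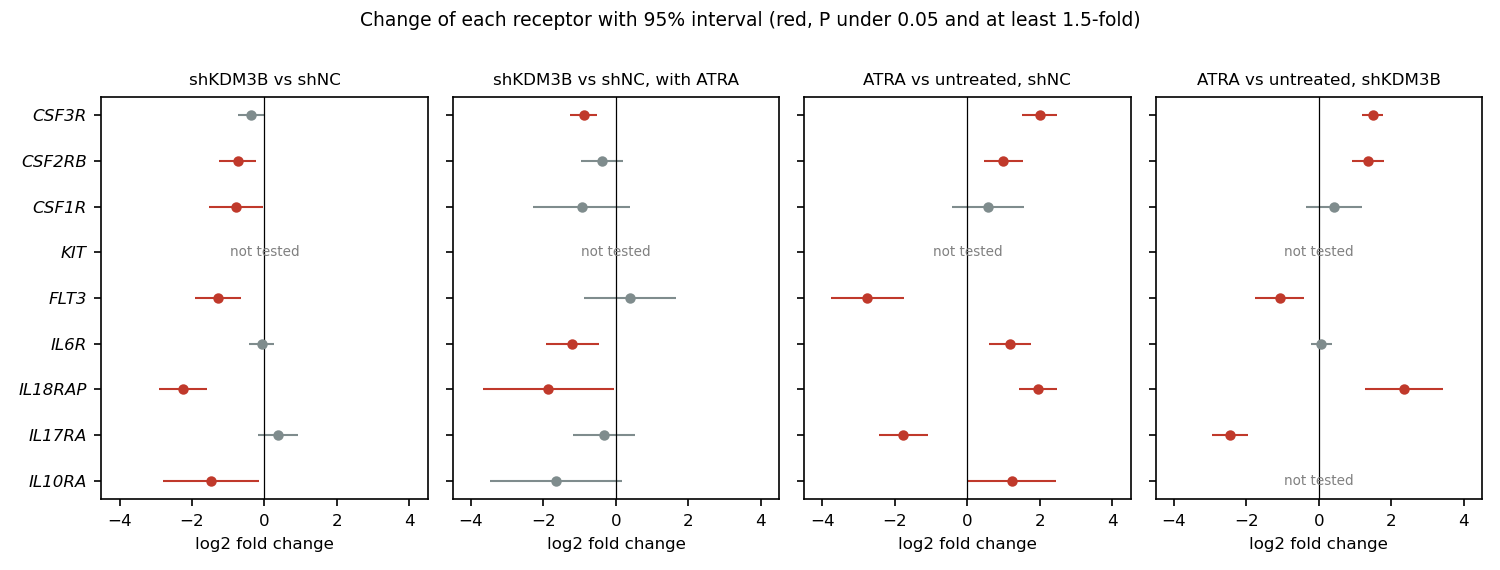
Log2 fold change of each receptor in the 4 pairwise comparisons, with points for the edgeR estimate, bars for the 95% interval and red where the unadjusted P was under 0.05 with a change of at least 1.5-fold. IL6R was red with ATRA in shNC and grey near 0 in shKDM3B, and all members called with knockdown were lower.

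The difference between both ATRA responses was tested as the interaction of hairpin and ATRA over all 8 libraries. IL6R (-1.13 ± 0.29, edgeR unadjusted P = 0.0052 in a model over 13528 genes) and FLT3 (1.66 ± 0.52, edgeR unadjusted P = 0.0144) were called, 2 of 8 tested members beside 3.99% of genes, 1.27% with a positive and 2.72% with a negative difference. A negative value means a weaker rise or deeper fall in shKDM3B. CSF3R differed by -0.54 ± 0.19 (edgeR unadjusted P = 0.0256), less than 1.5-fold. No gene passed after adjustment in edgeR, where 607 (4.49%) had an unadjusted P under 0.05, while DESeq2 called 23 genes and no member. For IL18RAP the difference was 0.38 ± 0.66 (95% interval -1.18 to 1.94), for CSF2RB 0.34 ± 0.28 (-0.32 to 1.01) and for IL17RA -0.70 ± 0.44 (-1.73 to 0.32), so differences of these sizes were not resolved.

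Partner chains with which members form receptors were followed from a list of 8 genes. That list was not complete, since IL17RE, a partner of IL17RA, was on the list of other receptors below. In untreated cells knockdown lowered IL5RA and IL18R1 among 6 tested and raised none, beside 7.01% of all genes called. With ATRA it raised IL6ST, the gp130 chain that signals for IL6R, by 1.12 ± 0.22 on the log2 scale (edgeR adjusted p = 0.502), the only call of 5 tested, beside 6.79% of all genes. IL6ST had 186 and 127 reads in shNC_ATRA and 257 and 228 in the smaller shKDM3B_ATRA libraries, so it stood on the opposite side to IL6R. ATRA in shNC raised CSF2RA and IL10RB and lowered IL5RA among 6 tested, beside 25.9% of all genes called. IL10RB, the second chain of the interleukin-10 receptor, rose by 1.35 ± 0.24 in shNC and by 1.04 ± 0.17 in shKDM3B (edgeR adjusted p = 0.0109 and 0.00088). IL5RA had 17 and 22 reads in shNC, 3 and 8 in shKDM3B, 2 and 0 in shNC_ATRA and 0 in both shKDM3B_ATRA libraries. It passed the low-count filter through shNC alone, so in both comparisons that counted it only a fall could readily be called. CSF2RA, which lies in the region shared by the sex chromosomes and so may lose reads to its copy, had 56 and 16 reads in shNC_ATRA against 9 and 14 in shNC, but 73 and 8 in shKDM3B.

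Other haematopoietic cytokine receptors moved in both directions, from a list of 31. That list and its counts include IL18BP, which is a binding protein and not a receptor. In shNC, ATRA raised 10 and lowered 2 of 20 tested, beside 25.9% of all genes called. IL12RB1, an interleukin-12 receptor chain, had 2 and 0 reads in shNC and 104 and 79 in shNC_ATRA, and went from 0 and 0 in shKDM3B to 36 and 44 in shKDM3B_ATRA. IL2RA, the interleukin-2 receptor alpha chain, had 44 and 41 reads in shNC_ATRA but 0 and 1 in shKDM3B_ATRA. In shKDM3B, ATRA raised 9 and lowered 5 of 20 tested, beside 42.2% of all genes called. Among them was IL17RE, a partner of IL17RA, at -3.32 ± 0.39 (edgeR adjusted p = 0.0001) beside -2.35 ± 0.42 in shNC. Untreated knockdown raised IL13RA1 and LEPR and lowered IL2RG among 19 tested, beside 7.01% of all genes called. With ATRA it raised IL13RA1 and lowered 3 of 22, beside 6.79% of all genes, including IL2RG, the common gamma chain, by -2.26 ± 0.24 (edgeR adjusted p = 0.502). In the interaction 2 of 23 were called, beside 3.99% of all genes, IL2RG at -1.68 ± 0.34 and IL27RA at -0.84 ± 0.34 (edgeR adjusted p = 0.965 and 1.00).

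Downstream of the receptors, ATRA in shNC raised 5 and lowered 1 of 10 tested JAK and STAT genes, beside 25.9% of all genes called. JAK2, the kinase that couples to CSF2RB and CSF3R, rose by 1.74 ± 0.23 in shNC and by 1.72 ± 0.26 in shKDM3B (edgeR adjusted p = 0.0035 and 0.00057), and STAT5A fell by 0.62 and 1.24 (edgeR adjusted p = 0.116 and 0.00513). In shKDM3B the counts were 4 and 2 of 9, beside 42.2% of all genes. Untreated knockdown raised STAT3 alone of 9, by 0.69 ± 0.17 (edgeR adjusted p = 0.189), and none of 10 was called with ATRA. Of 15 tested adaptors and kinases, ATRA raised 6 and lowered 1 in shNC and raised 5 and lowered 1 in shKDM3B. The latter share was no higher than the 42.2% of all genes called there, and the former stood beside 25.9%. The fall in both was GAB2, a docking protein, at -3.18 ± 0.30 and -3.22 ± 0.20. Knockdown raised IRAK3, an inhibitory IRAK family member of the pathway that IL18RAP uses, by 0.96 ± 0.16 untreated and 1.02 ± 0.14 with ATRA (edgeR adjusted p = 0.106 and 0.502), the only call of 15 in each, a share near those over all genes (7.01 and 6.79%). In the interaction 1 of 15 was called, IRAK2 at -1.82 ± 0.75 (edgeR adjusted p = 1.00), beside 3.99% of all genes.

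Of 19 tested negative regulators of cytokine signalling, ATRA raised 5 and lowered 1 in shNC and raised 5 and lowered 2 in shKDM3B, shares near the 25.9% and 42.2% of all genes called. SOCS3, which restrains CSF3R and IL6ST signalling, had 9 and 8 reads in shNC, 11 and 15 in shKDM3B, 57 and 33 in shNC_ATRA and 53 and 54 in shKDM3B_ATRA. It rose by 3.07 ± 0.49 in shNC and 3.48 ± 0.36 in shKDM3B (edgeR adjusted p = 0.00768 and 4.6e-05). Knockdown raised 3 of 18 untreated, beside 7.01% of all genes called, led by SOCS5 at 0.76 ± 0.23 and SOCS2 at 0.65 ± 0.24, and SOCS2 alone of 19 with ATRA, beside 6.79%, at 0.89 ± 0.25 (edgeR adjusted p = 0.28, 0.38 and 0.502). Of 3 sheddases that cut receptors from the surface, knockdown raised ADAM10, by 0.64 ± 0.15 untreated and 0.71 ± 0.14 with ATRA (edgeR adjusted p = 0.172 and 0.502), and none was called with ATRA in either hairpin. Of 13 ligand genes at most 2 passed the low-count filter in any comparison and none was called. CSF1, the ligand of CSF1R, had 48 and 37 reads in shNC and 15 and 42 in shKDM3B, whereas CSF2, IL3, IL10 and IL17A had no read in any library.

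The genes whose profile over the 8 libraries was nearest to each member were found as the root mean square difference of log2(CPM + 1), each gene centred on its own mean, among 8717 genes with a mean of at least 10 CPM. The nearest were STAC3, PSMB10 and C5AR2 for CSF3R (0.189 to 0.195), PRKCB, CLSTN3 and LGALS3BP for CSF2RB (0.119 to 0.136) and RASAL3, PSTPIP1 and FMNL1 for CSF1R (0.135 to 0.154). For IL6R they were PRDX5, NAMPTP1 and SLC7A11 (0.121 to 0.202), and for IL17RA MOK, LRP3 and GATA2 (0.137 to 0.149). FLT3 had ATP1B1, HERC5 and GNB5 at 0.287 to 0.372. IL18RAP had the most distant neighbours, CD37, FCER1G and PCED1B-AS1, at 0.462 to 0.521. For IL10RA none are given, because at its low CPM the added 1 hides most of its change. These distances are descriptions over libraries that fall into 4 groups.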

How the data were processed

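RNA-seq was measured in 8 NB4 libraries in 4 groups of 2. The deposited files held raw read counts per gene name, made by the authors on hg38; the submitters' processing notes name HISAT2, Picard, SAMtools, HTSeq and DESeq2, and versions were not given in the sources used here. Untreated files listed 56470 names and ATRA files 56609, so comparisons across treatment used the 37526 shared names, which held 96.4 to 99.1% of counts. Counts outside genes were left out. Since strand handling was not stated, overlap was checked: no exon of a member overlapped an exon of another gene in GENCODE v44.

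Here, edgeR 4.0.16 (R 4.3.3) was run on each pair of groups with its default expression filter (filterByExpr), TMM factors and quasi-likelihood testing, and on all 8 libraries for the interaction, with Benjamini-Hochberg adjustment over all genes of the fit. DESeq2 1.42.0, 3 other scalings, 2 other filters, a fit of all 8 libraries, a replicate block and omission of each library were alternatives, and DESeq2 with adjusted p was added after seeing the data. The scripts were tested on simulated data. For a single gene, an exact permutation test of 2 against 2 libraries cannot go below p = 0.333. Same-group replicates differed beyond sampling noise. All members were named, and from each other list, per comparison, at most 4 called genes (the 2 that rose most and the 2 that fell most), except that CSF1, CSF2, IL3, IL10, IL17A and the single markers outside that rule were named after their values were seen. Members and lists were chosen with earlier results of these data known. The markers of other lineages were promyelocyte, granulocyte, monocyte, lymphoid, erythroid and megakaryocyte, mast cell and basophil, and epithelial and fibroblast lists. Intervals on counts cover counting error only. Some genes passed the expression filter only through the group where they were high. Among them were IL10RA and IL5RA under knockdown and IL2RA, IL12RB1 and SOCS3 under ATRA. The direction of such calls was nearly fixed, and the counts of called genes include them.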

Additional observations from a re-analysis of the deposited data

Results flagged for a closer look

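The responses of 3 of 8 tested receptors to ATRA differed between shKDM3B and shNC cells by the interaction test at an unadjusted P under 0.05, as did those of 4.49% of all genes. These were CSF3R (-0.54 on the log2 scale), FLT3 (1.66) and IL6R (-1.13), and none passed adjustment over 13528 genes in edgeR or DESeq2. In libraries, all 4 ATRA libraries were above the untreated ones for CSF3R and below them for FLT3, while IL6R was higher with ATRA in 2 of 2 shNC libraries only. With each library left out in turn, IL6R ran from -1.40 to -0.80 and was called in all 8 fits, FLT3 from 1.32 to 2.09 and was called in 7, and CSF3R from -0.63 to -0.44. The share of reads outside genes was 9.36% in shNC_ATRA replicate 1 and 50.0% or more in the other 3 ATRA libraries, and its part in these differences was not tested.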

How the results depend on the processing

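Across 432 alternative values of the members in the 4 pairwise comparisons, 384 kept their direction and side of the thresholds, 38 lost and 7 gained a call, and 3 changed sign. Pairing of same-numbered replicates was not stated. The correlation of same-numbered deviations was 0.386 in untreated knockdown and 0.0216 in knockdown with ATRA. It was -0.0661 for ATRA in shNC and 0.172 for ATRA in shKDM3B. The main fits held no replicate block. Such a block gave 1242 genes for 971 and 5 members untreated, 525 for 969 and 3 with ATRA, 2881 for 3213 and 6 members for 7 for ATRA in shNC, 5445 for 5386 and 5 in shKDM3B, and 538 for 540 and 2 for the interaction. In untreated knockdown the count was 3 genes and 0 members at adjusted p, 278 and 2 with DESeq2 at adjusted p, 3 members with DESeq2 unadjusted, and 943 to 1650 genes and 3 to 5 members with a library left out. Knockdown with ATRA gave 0 genes and 0 members at adjusted p, 357 genes and 2 members with DESeq2 at adjusted p, and 134 to 5360 genes and 1 to 5 members with a library left out. ATRA in shNC gave 1604 genes at adjusted p, and 1462 to 5142 genes and 4 to 7 members with a library left out. In shKDM3B the range was 4953 to 5866 genes and 5 members throughout. The interaction gave 941 genes with no filter, 0 genes and 0 members at adjusted p, 23 and 0 with DESeq2 at adjusted p, and 285 to 2432 genes and 1 to 4 members with a library left out. The cause was not tested.

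Signs changed for CSF1R with ATRA in shNC (range with a library left out -0.0022 to 0.95), KDM3B there (-0.59 to 0.073), both called at their wider end, and IL6R with ATRA in shKDM3B (-0.0046 by upper-quartile scaling, -0.00076 to 0.088 with a library left out). In the interaction the ranges with a library left out crossed 0 for CSF1R (-0.59 to 0.40), IL10RA (-0.77 to 0.25), KDM3B (-0.64 to 0.068) and IL18RAP (-0.67 to 1.00), past the thresholds at the lower end for KDM3B and the upper end for IL18RAP. Upper-quartile scaling gave 399 higher and 573 lower genes untreated, against 482 and 489. In shNC with ATRA, library size alone gave 1617 and 1688, against 1866 and 1347. In the interaction, library size alone gave 234 and 279, against 172 and 368.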

Other observations

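Among receptors that are no members, IL17RB differed between the shNC_ATRA libraries. It had no read in the 4 untreated libraries, 1 read in shNC_ATRA replicate 1, 51 in shNC_ATRA replicate 2 and 53 and 46 in shKDM3B_ATRA. STAT4 had 17 and 12 reads in shNC_ATRA and at most 5 in any other library.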
